A study of Homo sapiens with 3 samples.

Results

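CCDC26 is a gene of a long non-coding RNA on chromosome 8 (gene ID 137196), and it was examined here as a distant contact partner of the breast cancer risk region 8q24.21. Its members were the HindIII target fragments of chromosome 8 whose midpoint lay between 130360000 and 130700000 (GRCh37), a window of 340 kb around the gene, which lies near 130363940 to 130692485. There were 106 such fragments, of 3033 target fragments near 8q24.21 and 17969 near all captured regions of the series. Each was counted with all 192 captured fragments of 8q24.21, which lie on chromosome 8 from 127886760 to 128470692. The pairs were 1.89 to 2.81 Mb apart. The window was chosen by its measured contact over the distance background in these same tables, so that level is given as a description, without a test.

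Long non-coding RNAs are transcripts that do not encode a protein, and some of them regulate transcription. CCDC26 is known mainly from glioma and myeloid leukaemia, where variants or copy number changes at the locus have been described. In the RefSeq gene order the nearest protein-coding genes are MYC, a transcription factor gene, on the centromeric side and GSDMC, a gasdermin family gene, on the telomeric side. In capture Hi-C, neighbouring DNA ends are joined inside fixed nuclei, and hybridisation to probes then pulls out joined fragments of which one belongs to a region of interest. A count is therefore a frequency of physical proximity over many cells. It measures neither the expression of CCDC26 nor an effect on it.

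The series profiled 3 cell lines, each with 2 replicates in separate count columns. BT483 came from an invasive ductal carcinoma, a primary breast tumour, and was grown with insulin. SUM44 is a breast cancer line from a pleural effusion and was grown with estradiol in medium free of phenol red. GM06990 is a line of B lymphocytes and served as the non-breast line. All were fixed with formaldehyde and digested with HindIII, but BT483 was lysed with trypsin and SUM44 and GM06990 with a dounce, so line, medium and, for BT483, lysis cannot be told apart. Each line is a single established line, and nothing said that its replicates were separate cultures, so p-values measure only the spread between these columns, which may be technical.

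Contacts of 8q24.21 with targets within 5 Mb of the capture ranged from 87714 in BT483 replicate 1 to 422044 in SUM44 replicate 1. The replicates of BT483 were the least alike, in each of 3 measures. Over the member fragments, contact over background in BT483 replicate 2 correlated with the SUM44 replicates at a Spearman rho of 0.848 and 0.857, and with BT483 replicate 1 at 0.677. For SUM44 the replicates correlated at a rho of 0.930, and for GM06990 at 0.759. In contacts of other captured regions with 1 Mb bins of chromosome 8, BT483 replicate 2 was also closer to SUM44 (0.811 and 0.831) than to its own replicate (0.619). Over 2161 bins of 1 Mb on chromosome 8 and the chromosomes without a captured region together, it was closer to its own replicate (0.776) than to SUM44 (0.609 and 0.617). These correlations are across fragments or bins that share libraries and depth. Results for BT483 are therefore given per replicate or with the SD over its replicates where these were measured, and counts of members called also without one or the other.

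The CCDC26 window was contacted about as often as 2 times the distance background in the breast lines and somewhat less in GM06990. The background is the count expected for a pair from its distance and from the trans contacts of its captured fragment, fitted to all 582336 pairs of the region in each library. The window held 5936 and 25855 contacts in the BT483 replicates, or 2.12 and 1.78 times the expected count. In the SUM44 replicates it held 28496 and 25315 contacts, or 2.00 and 2.01 times the expected count. The GM06990 replicates had 7211 and 6269 contacts, or 1.77 and 1.67 times the expected count. The means were 1.95 ± 0.240 in BT483, 2.00 ± 0.00747 in SUM44 and 1.72 ± 0.0690 in GM06990 (SD, n = 2). All 4 breast libraries lay above both GM06990 libraries, the lowest of them, BT483 replicate 2, by a margin smaller than the spread within either BT483 or GM06990. The size of the excess rests on the background: when that was fitted to telomeric targets alone, the means were 1.38 ± 0.124, 1.34 ± 0.00212 and 1.25 ± 0.0178.

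The window was chosen for its contact and its borders set those of the stretches compared with it, so ranks among them are a description. Along the near cis region the window was the most contacted of 27 stretches of its own length in all 4 breast libraries. In GM06990 it ranked 2 and 3 of 27. There the stretch from 129000000 (1.78 and 1.83 times expected) was above it in both replicates, and the stretch from 128660000 (1.74 and 1.84) in replicate 2 only. In SUM44 the stretch from 129000000 stood at 0.862 and 0.868, below its background. The stretch just centromeric of the window reached 1.29 ± 0.122 in BT483, 1.41 ± 0.00811 in SUM44 and 1.02 ± 0.0541 in GM06990. The stretch just telomeric of it reached 1.52 ± 0.0399, 1.49 ± 0.00213 and 1.46 ± 0.00720. A stretch at the same distance on the centromeric side of the capture reached only 0.540 ± 0.0705, 0.435 ± 0.00766 and 0.618 ± 0.0820.

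**Figure D1:**
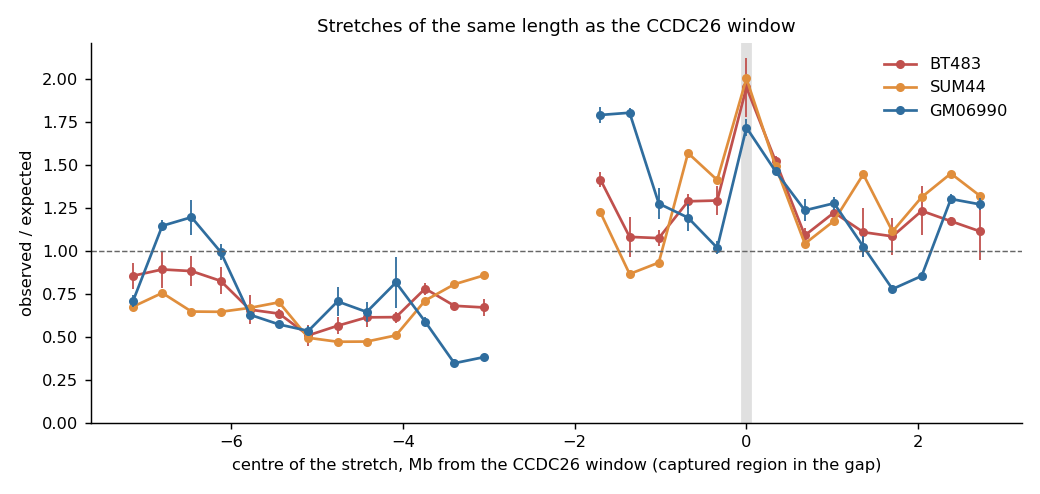
Observed over expected contact (y axis, linear) of stretches as long as the CCDC26 window, by the distance of their centre from the window in Mb (x axis). Points are means of the 2 replicates of a line and bars run from one replicate to the other; the breast lines peak at the window, at 1.95 and 2.00, while GM06990 has 2 stretches nearer the capture with means above that of its window.

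The stretches whose contact profile over the 192 captured fragments was most like that of the window were the 3 from 130020000, 129340000 and 129680000, with a Pearson r of 0.927, 0.912 and 0.886 (log2, all libraries summed). All stretches share the capture efficiency of the same fragments.

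Within the window, contact was lowest in the centromeric part in all 6 libraries. The centromeric part, of 34 fragments, stood at 1.61 ± 0.172 times expected in BT483, 1.67 ± 0.00290 in SUM44 and 1.39 ± 0.0960 in GM06990. The middle part, of 41 fragments, stood at 1.99 ± 0.124, 2.13 ± 0.00905 and 1.91 ± 0.0686. The telomeric part, of 31 fragments, stood at 2.31 ± 0.484, 2.24 ± 0.0373 and 1.84 ± 0.0469. In both breast lines the telomeric part exceeded the middle part in both replicates, in BT483 replicate 2 only slightly, at 1.96 against 1.90. In GM06990 it was the lower of these parts in both replicates, and the replicates of BT483, at 2.65 and 1.96 in the telomeric part, lay far apart.

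In 50 kb steps, the high contact did not stop at the telomeric end of the gene. The 50 kb from 130300001, just before the gene, stood at 1.28 ± 0.179 in BT483, 1.19 ± 0.0230 in SUM44 and 0.909 ± 0.0177 in GM06990. The next 50 kb, from 130350001, stood at 1.61 ± 0.187, 1.63 ± 0.000125 and 1.37 ± 0.149. Beyond the gene, the 50 kb from 130700001 still stood at 2.53 ± 0.246, 2.39 ± 0.0341 and 2.00 ± 0.154. The 50 kb from 130750001 were lower in all 6 libraries, at 1.68 ± 0.370, 1.46 ± 0.0882 and 1.40 ± 0.00729.

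All 106 members had at least 50 contacts in 1 line, the minimum for being described singly. In both replicates 104 members stood above background in BT483, 103 in SUM44 and 86 in GM06990. More than 2 times the background in both replicates was reached by 22, 40 and 21 members. Other telomeric fragments within 1 Mb of the window's centre, with at least 50 contacts in the line, reached it in 10 of 495, 26 of 500 and 20 of 433. Their medians were 1.24, 1.30 and 1.32 times expected. Since the window was chosen for high contact, nothing is read from these counts. The median member stood at 1.84 times expected in BT483, 1.88 in SUM44 and 1.58 in GM06990, with ranges of 0.711 to 3.58, 0.775 to 4.13 and 0.377 to 4.93.

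**Figure D2:**
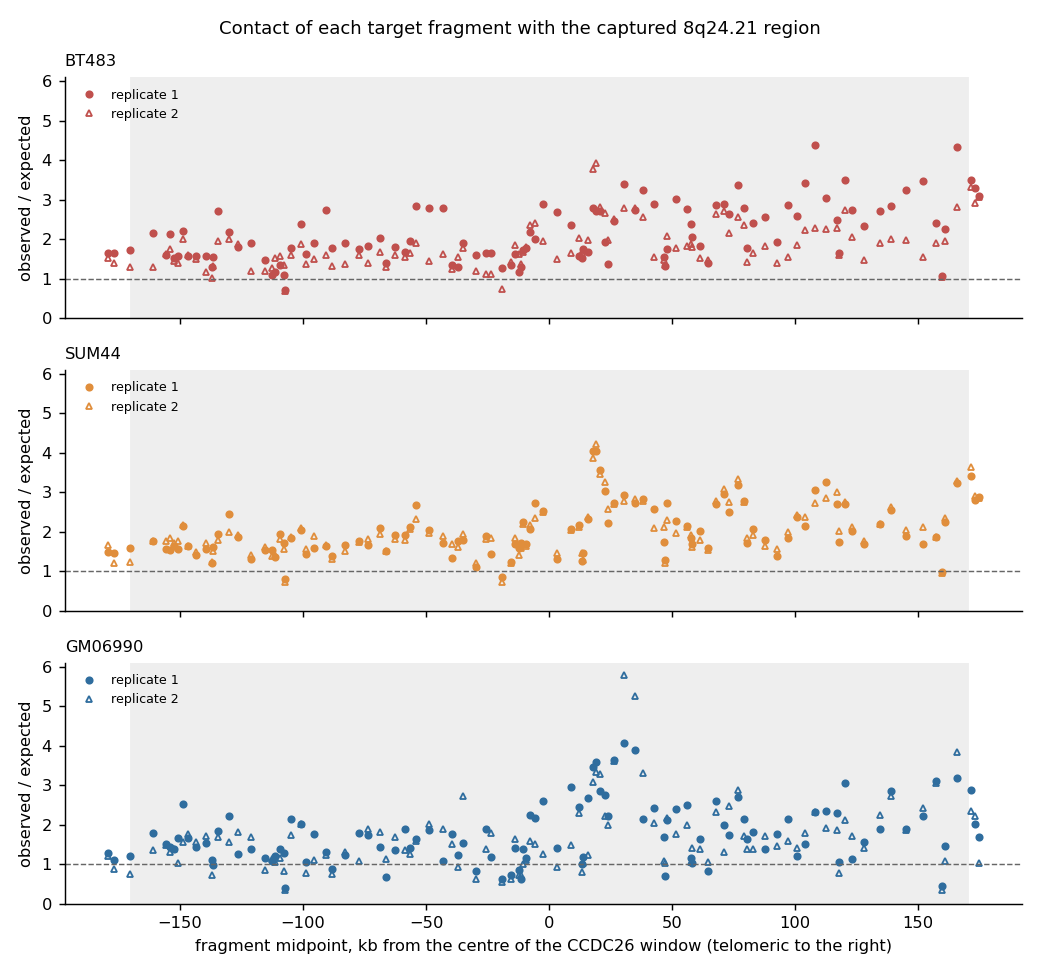
Observed over expected contact (y axis, linear) of each target fragment in and just outside the CCDC26 window, by the distance of its midpoint from the window's centre in kb (x axis); the grey band is the window, filled circles are replicate 1 and open triangles replicate 2. SUM44 and BT483 replicate 2 peak just telomeric of the centre at about 4, and GM06990 peaks slightly farther on, at up to 5.80.

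At the border of the window, the 3 fragments just outside it on the centromeric side averaged 0.980 to 1.59 times expected in the 3 lines. The last of these, from 130355215 to 130364393, holds the centromeric end of the gene but has its midpoint outside the window. It stood at 1.73 and 1.29 in BT483, 1.60 and 1.25 in SUM44 and 1.20 and 0.758 in GM06990. The first member, from 130364394 to 130373563, stood at 2.16 and 1.31 in BT483, 1.77 and 1.78 in SUM44 and 1.79 and 1.36 in GM06990. In BT483 replicate 2 it was thus only slightly above the adjacent fragment outside, and below the other 2 (1.53 and 1.41). Of the 3 fragments just outside on the telomeric side, the one from 130700485 stood at 3.49 and 3.31 in BT483, 3.43 and 3.63 in SUM44 and 2.88 and 2.35 in GM06990. Those from 130701971 and 130704066 averaged 3.10 and 3.08 in BT483, 2.85 and 2.87 in SUM44 and 2.12 and 1.36 in GM06990.

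The last member, from 130691074 to 130700484, holds the telomeric end of CCDC26 and was among the 5 most contacted members in every line. It had 106 and 357 contacts in BT483 (4.34 and 2.82 times expected), 386 and 346 in SUM44 (3.24 and 3.29) and 113 and 131 in GM06990 (3.19 and 3.84). The libraries of the 3 lines overlapped there. It is also a long fragment, of 9411 bases against a median of 2626 over the members.

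The other summit lay in the middle of the gene, and its highest fragments were not the same in SUM44 and in GM06990. In SUM44 the top members were 130548286 to 130549444 (4.04 and 4.23 times expected) and its neighbour 130547079 to 130548285 (4.05 and 3.88), followed by 130549445 to 130551891 (3.56 and 3.47). BT483 replicate 2 had the same pair on top, at 3.93 and 3.79, while BT483 replicate 1 stood at 2.72 and 2.79 there. Within this summit BT483 replicate 1 was highest, at 3.38, in the fragment that led in GM06990. In GM06990 these fragments reached 3.60 and 3.35, and 3.46 and 3.09. Its top members lay a few kb farther on: 130558006 to 130562996 (4.06 and 5.80), 130562997 to 130566850 (3.89 and 5.27) and 130554560 to 130558005 (3.64 and 3.61).

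Both summits were then counted as blocks, chosen after their values had been seen. The contacts of the block from 130547079 to 130551891 divided by those of the block from 130554560 to 130566850 came to 1.40 and 1.40 in SUM44 and to 0.861 and 0.665 in GM06990. In BT483 they came to 0.964 and 1.31. The ratio was thus above 1 in both SUM44 replicates and in BT483 replicate 2, and below 1 in both GM06990 replicates and in BT483 replicate 1. The remaining members among the top 5 of a line were 130636614 to 130639023 (4.38 and 2.27) and 130647746 to 130652642 (3.49 and 2.73) in BT483, and 130605123 to 130608603 (3.18 and 3.34) in SUM44.

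Single pairs of a captured fragment and a member were called over background only in SUM44. The rule was a Benjamini-Hochberg adjusted p at most 0.01 from the negative binomial fit to the summed replicates, and at least 5 contacts. It called 3 of the window's 20352 pairs there, and 0 in BT483 and in GM06990. In BT483 and in GM06990 the lowest adjusted p of the window from that fit was 0.0107, just above the cut. Over all pairs of 8q24.21 the rule called 0.00103% in SUM44, 0.000343% in BT483 and 0.00275% in GM06990. With at least 5 contacts and an unadjusted p under 0.05 from that fit, the window had 2570 pairs in SUM44, 968 in BT483 and 131 in GM06990. Over all 582336 pairs of 8q24.21 there were 10740, 6049 and 4169. Since the window was chosen for this contact, nothing is read from these counts. All 3 pairs joined the centromeric end of the capture to the middle summit, over about 2660 kb. The captured fragment from 127886760 to 127889453 had 8 and 6 contacts with 130547079 to 130548285, or 19.2 times expected (exact Poisson 95% interval 10.5 to 32.3, counting error only), and 7 and 8 with 130548286 to 130549444, or 20.6 (11.5 to 34.0). The captured fragment from 127889454 to 127891696 had 11 and 10 contacts with 130547079 to 130548285, or 14.6 (9.03 to 22.3).

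The same 3 pairs had 7, 7 and 14 contacts in BT483, 12.5, 12.5 and 11.4 times expected, and 4, 4 and 9 contacts in GM06990, 17.0, 17.0 and 16.6 times expected. The ratios in the 3 lines thus had overlapping intervals, and the call in 1 line only is not shown to be a difference between lines. With either SUM44 replicate alone no pair was called. With distance as the only term of the background, 0 pairs were called in SUM44 and 1 in GM06990.

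The contacts of the window came from across the capture, and its centromeric end was high in all lines. The 64 captured fragments on the centromeric side averaged 2.14 ± 0.263 times expected with the window in BT483, 2.22 ± 0.00532 in SUM44 and 1.87 ± 0.336 in GM06990. The 64 in the middle averaged 1.99 ± 0.237, 1.83 ± 0.0137 and 1.91 ± 0.0142. The 64 on the telomeric side averaged 1.76 ± 0.226, 1.96 ± 0.0144 and 1.44 ± 0.0933. With the stretches flanking the window, the centromeric, middle and telomeric sides of the capture stood at 1.51, 1.40 and 1.24 in BT483, 1.58, 1.32 and 1.42 in SUM44 and 1.49, 1.24 and 0.907 in GM06990.

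**Figure D3:**
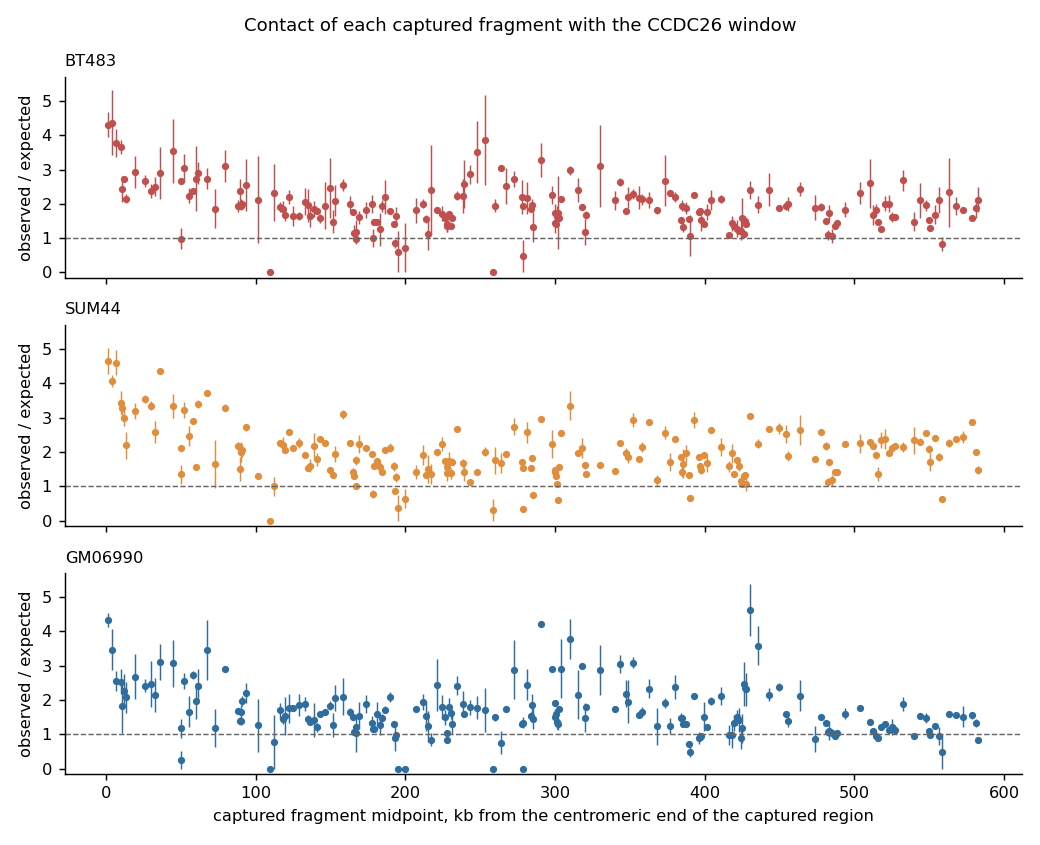
Observed over expected contact (y axis, linear) of each of the 192 captured fragments with the whole CCDC26 window, by its distance from the centromeric end of the capture in kb (x axis). Points are means of the 2 replicates and bars run from one replicate to the other; fragments of 0 had no contact. The centromeric end is high in all lines, and a separate high point near 430 kb is seen in GM06990.

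The captured fragment at the centromeric end, from 127886760 to 127889453, was among the 2 highest in every line, with 4.67 and 3.94 times expected in BT483, 4.28 and 5.02 in SUM44 and 4.55 and 4.12 in GM06990. Its neighbour from 127889454 to 127891696 led in BT483 (5.31 and 3.43) and was also high in SUM44 (4.25 and 3.90). In GM06990 the highest was the captured fragment from 128314311 to 128319325, with 135 and 151 contacts, 3.86 and 5.40 times expected. It stood at 2.66 and 2.13 in BT483 and at 3.05 and 3.06 in SUM44, below both GM06990 libraries. Across the 192 captured fragments the profiles correlated at a Pearson r of 0.769 between BT483 and SUM44, 0.693 between BT483 and GM06990 and 0.682 between GM06990 and SUM44. The replicates of SUM44 correlated at 0.872, those of GM06990 at 0.627 and those of BT483 at 0.609. The fragments share libraries and capture efficiency, so these are descriptions.

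Between lines, most members were not called at an adjusted p under 0.05, and those called were mostly higher in the breast lines than in GM06990. A member without a call is not shown to be equal in 2 lines. Each member's contacts were summed over the captured fragments and tested with edgeR's quasi-likelihood F test against the distance background of each replicate, with adjustment over the 5466 fragments of the 3 risk loci. In BT483 against GM06990, 11 of 106 members were higher (10.4%) and 2 lower (1.89%), where 7.45% of all fragments tested were called higher and 5.18% lower, and 10.3% and 6.27% of those of 8q24.21. In SUM44 against GM06990, 20 were higher (18.9%) and 3 lower (2.83%), where 13.8% and 10.6% of all fragments and 17.3% and 12.6% of those of 8q24.21 were called. The share of members called higher was near that of 8q24.21 as a whole. The median log2 change over the members was 0.18 in BT483 and 0.29 in SUM44, against 0.06 and 0.09 over all fragments.

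Both comparisons share the GM06990 libraries, so the 8 members higher and the 2 lower in both are not independent. In BT483 against SUM44, 0 of 106 members passed in edgeR, and 0 in DESeq2. By the same adjusted threshold edgeR called 0.0183% of all fragments higher and 0.165% lower, and 0.0367% and 0.33% of those of 8q24.21. At an unadjusted p under 0.05 in edgeR, 0 members were higher and 4 lower. The share of all fragments at that unadjusted p was not counted, so nothing is read from these 4.

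Summed into 50 kb windows, 1 of the 7 windows of the gene was higher in BT483 against GM06990 and 0 lower, where 19.0% of all such windows were called higher and 14.5% lower. In SUM44 against GM06990, 3 of 7 were higher and 0 lower, where 24.8% and 29.8% were called. The window from 130600001 passed in both, with a log2 change of 0.38 ± 0.13 in BT483 (edgeR adjusted p = 0.041) and 0.41 ± 0.13 in SUM44 (edgeR adjusted p = 0.016). In BT483 against SUM44, 0 of 7 passed in edgeR, where 9.09% were called higher and 3.14% lower, and 0 had an unadjusted p under 0.05.

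**Figure D4:**
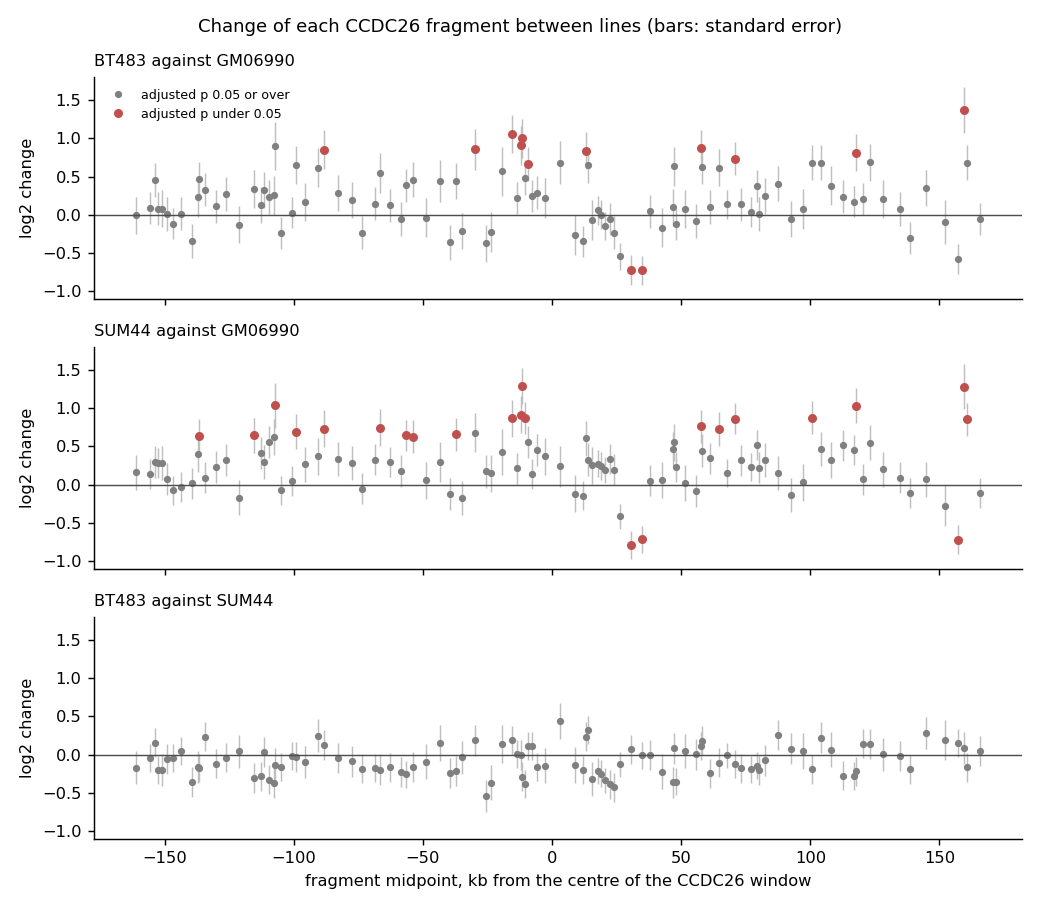
Log2 change (y axis) of each of the 106 CCDC26 fragments in the 3 comparisons, by the distance of its midpoint from the window's centre in kb (x axis); bars are standard errors and red points passed an adjusted p under 0.05. Higher members are spread over the window, the lower ones sit just telomeric of its centre and, in SUM44, near its telomeric end, and no member passed between the breast lines.

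The members that fell were 2 of the 3 top members of the GM06990 summit, in both breast lines, and, in SUM44, 1 fragment near the telomeric end of the gene. The remaining summit member, from 130554560 to 130558005, missed the threshold, with a log2 change of -0.54 in BT483 (edgeR adjusted p = 0.0517) and -0.41 in SUM44 (edgeR adjusted p = 0.079). The member from 130558006 to 130562996 had 88 and 375 contacts in BT483 (3.38 and 2.78 times expected) and 385 and 323 in SUM44 (2.93 and 2.78), against 154 and 204 in GM06990 (4.06 and 5.80). It was lower in BT483 by a log2 change of -0.72 ± 0.20 (SE, edgeR adjusted p = 0.0215) and in SUM44 by -0.78 ± 0.19 (edgeR adjusted p = 0.00424). No breast library reached the lower GM06990 replicate. The adjacent member from 130562997 to 130566850 was lower by -0.73 ± 0.19 (edgeR adjusted p = 0.0163) and -0.71 ± 0.18 (edgeR adjusted p = 0.0057). The summit members had been named for their high value in these same GM06990 libraries. A fall was thus favoured by that choice, and their calls are no support for a difference. The member from 130685507 to 130688608 was lower in SUM44 by -0.72 ± 0.19 (edgeR adjusted p = 0.00756), with 1.87 and 1.88 times expected against 3.12 and 3.05 in GM06990. In BT483 its change was -0.57 (edgeR adjusted p = 0.061).

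The members with the largest rises were fragments with little contact in GM06990, at 0.352 to 0.732 times expected. The member from 130688609 to 130690295, next to the one just described, had 26 and 131 contacts in BT483 (1.06 and 1.03 times expected), 118 and 103 in SUM44 (0.984 and 0.974) and 16 and 12 in GM06990 (0.450 and 0.352). Its log2 change was 1.37 ± 0.30 in BT483 and 1.28 ± 0.29 in SUM44, although in the breast lines it stood only at its background. With 28 contacts in GM06990, it met the minimum of 50 contacts only through the breast lines, where it is high, so its call is no support for a difference. The member from 130518077 to 130518722 was higher by 1.00 ± 0.25 in BT483 (edgeR adjusted p = 0.0144) and 1.29 ± 0.24 in SUM44 (edgeR adjusted p = 0.00057). It had 50 contacts in GM06990, just at the minimum, and was called under 12 of 16 other settings in BT483 and 15 in SUM44. The remaining largest rise in BT483 was 130514142 to 130514817 (1.05 ± 0.25, edgeR adjusted p = 0.0105). That member also had 50 contacts in GM06990, and it was called under 13 of 16 other settings. In SUM44 the remaining one was 130422581 to 130422644 (1.04 ± 0.29). This is the shortest member, of 64 bases, and stood below background in all 6 libraries, at 0.358 to 0.812. It had 29 contacts in GM06990, so it too met the minimum only through the breast lines, and it was called under 9 of 16 other settings. Of the members called higher, 1 of 11 in BT483 and 2 of 20 in SUM44 had entered the test in this way.

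The members called higher were mostly short. Of the 11 and 20, 9 and 14 were under 1000 bases, against 26 of all 106 members. Their median length was 646 and 661 bases, against 2911 and 3296 in members without a call. Short members had a median log2 change of 0.65 in BT483 and 0.65 in SUM44, and longer ones 0.08 and 0.20. The other fragments of 8q24.21 showed the same order, with 0.39 and 0.43 in short and -0.01 and -0.06 in longer ones. With fragment length in the background, an alternative chosen after seeing the data, 7 higher and 2 lower remained in number in BT483, and 15 and 3 in SUM44. The part of fragment length in the rest was not tested.

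The counts moved with single libraries and with the scaling. Without GM06990 replicate 2, 0 higher and 0 lower were called in BT483 and 5 and 1 in SUM44, and without GM06990 replicate 1, 3 and 2 in BT483 and 14 and 3 in SUM44. Without SUM44 replicate 1 the counts in SUM44 were 6 and 1, and without SUM44 replicate 2 they were 5 and 0. In BT483 they were 14 and 5 without its replicate 1, and 14 and 1 without its replicate 2. Scaled to near cis totals in place of the distance background, 34 members were higher and 0 lower in BT483, and 52 and 0 in SUM44, with the median of all fragments at 0.23 and 0.09. Divided further by each fragment's own trans level, 0 members passed in BT483 and 5 higher and 0 lower in SUM44.

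Taken by captured fragment, a test added after seeing the data, smaller shares were called with the window than over all combinations tested. Most of the captured fragments called higher in SUM44 lay on the telomeric side of the capture, where contact with other telomeric stretches rose too. The contacts of each captured fragment with the window were tested among 3262 combinations of captured fragment and stretch of 8q24.21, of which 8.65% were called higher and 5.46% lower in BT483 against GM06990, and 17.3% and 11.3% in SUM44 against GM06990. Of the 176 captured fragments tested with the window, 8 were higher (4.55%) and 3 lower (1.70%) in BT483, and 26 higher (14.8%) and 4 lower (2.27%) in SUM44. On the telomeric side of the capture, 24 of 62 were higher and 4 lower in SUM44, on the centromeric side 2 of 59 were higher, and in the middle 0 of 55. In BT483, 7 of the 8 lay on the telomeric side. The median log2 change on that side was 0.59 in SUM44 and 0.32 in BT483, against 0.30 and 0.31 for the other telomeric stretches. On the centromeric side it was 0.30 and 0.16, against 0.005 and -0.11. The shares called by side of the capture were not counted for the other stretches.

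The captured fragment that led in GM06990, from 128314311 to 128319325, was lower with the window by -0.98 ± 0.21 in BT483 (edgeR adjusted p = 0.002) and -0.59 ± 0.19 in SUM44 (edgeR adjusted p = 0.021). Because it was picked for its high value in these same GM06990 libraries, a fall was favoured by the choice, and the calls are no support for a difference. Its median over the other telomeric stretches was -0.82 and -0.21. Between BT483 and SUM44, 0 of 176 captured fragments passed in edgeR, where 0.215% of all combinations were called higher and 0.337% lower. At an unadjusted p under 0.05 in edgeR, 5 were higher and 15 lower, and the share of all combinations at that p was not counted. DESeq2 was not run on these. Without GM06990 replicate 2 the counts were 2 higher and 0 lower in BT483 and 10 and 0 in SUM44. Without SUM44 replicate 2 those in SUM44 were 5 and 1, and without SUM44 replicate 1, 12 and 1. In BT483 they were 6 and 4 without its replicate 1 and 5 and 1 without its replicate 2.

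Contacts of the window with captured regions on other chromosomes did not enter the choice of the members, and they were only a little above the chromosome's typical level. The 7 windows of 50 kb over CCDC26 together held 250 and 740 such contacts in BT483, 190 and 178 in SUM44 and 192 and 423 in GM06990. Per window this was 1.32 and 1.63 times the median window of chromosome 8 in BT483, 1.36 and 1.27 times in SUM44 and 1.25 and 1.26 times in GM06990. The 40 flanking windows stood at 1.20 and 1.59, 1.49 and 1.53, and 1.28 and 1.20. CCDC26 was thus above its flanks in both BT483 replicates and below them in both SUM44 replicates. In BT483 the differences were smaller than the gap between its own replicates. In SUM44 they were larger than that between its own replicates. Neither was tested. Against the long arm alone the levels were 1.19 ± 0.146, 1.10 ± 0.0505 and 1.24 ± 0.00956.

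**Figure D5:**
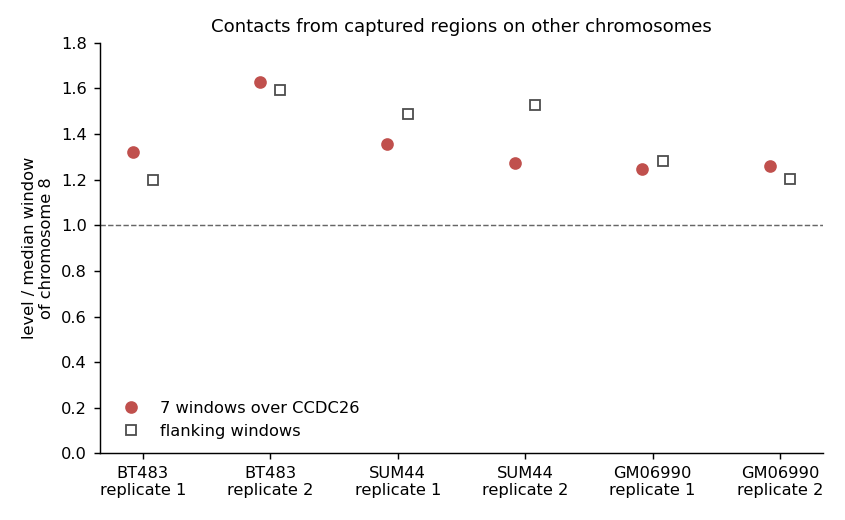
Contacts per 50 kb window from captured regions on other chromosomes, divided by the median window of chromosome 8 (y axis, linear, from 0), in each library (x axis). Red circles are the 7 windows over CCDC26 and open squares the 40 flanking windows; all lie between 1.20 and 1.63.

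Along the gene, the trans level did not follow the rise seen from 8q24.21. The window from 130650001, at the telomeric end, was the lowest of the 7 in all 6 libraries, at 0.35 to 0.667. Its cis contact in the same 6 libraries was 1.95 to 2.81 times expected. The window from 130500001 was the highest, or tied for it, in 5 of 6 libraries, at 1.58 to 2.85. It holds 21 HindIII fragments and the one from 130650001 holds 11, the most and the fewest of the 7; trans levels are per 50 kb and the cis ratios per fragment.

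In BT483 against GM06990, 6 of the 7 windows were higher in trans and 0 lower (edgeR, scaled to trans contacts elsewhere, adjusted over 2545 windows of chromosome 8), where 60.1% of the chromosome's windows were called higher and 13.0% lower. Their median log2 change was 0.91, against 0.82 over all windows of chromosome 8. With either BT483 replicate left out, only 6 of the 7 windows met the contact minimum and were tested, in every comparison. Scaled to chromosome 8 totals, 0 of 7 passed and the medians were 0.23 and 0.15. The count was 4 without BT483 replicate 2, 1 without GM06990 replicate 1, 2 without GM06990 replicate 2, and 3 without either SUM44 replicate. In SUM44 against GM06990, 0 of 7 passed in edgeR, where 13.6% of windows were called higher and 4.79% lower. At an unadjusted p under 0.05 in edgeR 0 passed, and 0 passed with DESeq2 size factors. In BT483 against SUM44, 4 were higher and 0 lower, where 27.6% and 4.40% were called, with a median of 0.93 against 0.46 over all windows. None of these passed with chromosome 8 totals, nor without either SUM44 replicate, while 6 passed without BT483 replicate 1 and 3 without its replicate 2.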

How the data were processed

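The authors deposited raw counts of ligated pairs per captured and target HindIII fragment (near cis) and per 50 kb window (trans), with 1 column per replicate. CASAVA 1.8 and GRCh37 are named per the submitters' processing notes; the aligner, filters and duplicate handling are not given in the sources used here. Without molecular identifiers, intervals cover counting error only. Expected counts came from a negative binomial regression on distance (cubic spline of its log10, 4 knots) and on how many trans contacts the captured fragment had (log), per library for levels and per line for pair calls. Between lines, fragments or windows with at least 50 contacts in 1 line were tested with edgeR 4.0.16 (quasi-likelihood F test, Benjamini-Hochberg, threshold 0.05); DESeq2 1.42.0 was an alternative. Both fits were tested on simulated data. Named were the 5 highest fragments per line, fragments with called pairs, up to 3 largest changes per direction and comparison, 3 border fragments per side, 5 top captured fragments per line (the leading ones in the text) and the 3 most alike stretches. The members, rules and tests were chosen with earlier results of these data known, and alternatives marked so were added after seeing the data. Contacts within the capture and low resolution cis windows were not used here. RefSeq (GRCh38.p14) served for names and gene order only. Replicate numbers did not pair the libraries.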

Additional observations from a re-analysis of the deposited data

How the results depend on the processing

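The called pairs had expected counts of 0.728, 0.727 and 1.44, so their ratios have wide counting intervals. Level of the window over background, in the order BT483, GM06990 and SUM44: telomeric background 1.38, 1.25 and 1.34; members left out of the background 2.24, 1.90 and 2.32; 6 knots 1.53 in GM06990 and 1.82 in SUM44; and in SUM44 also 1.99 with fragment length and 2.03 with a Poisson fit. The window stayed above 1 in all of these. With distance only, the centromeric part in SUM44 was 1.68. Leaving out a replicate gave 1.78 to 2.12, 1.67 to 1.77 and 2.00 to 2.01 for the window; 1.49 to 1.73, 1.32 to 1.46 and 1.67 to 1.67 for the centromeric part; 1.90 to 2.08, 1.86 to 1.95 and 2.12 to 2.14 for the middle part; and 1.96 to 2.65, 1.81 to 1.87 and 2.21 to 2.26 for the telomeric part.

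Called pairs in the window were 2 with fragment length, 27 with Poisson and 4 with members left out in BT483; 1 with distance only, 39 with Poisson and 2 with members left out in GM06990; and, in SUM44, 0 at an adjusted p of at most 0.001, 1 with at least 20 contacts, 0 with distance only, 225 with Poisson, 1 with the telomeric background and 0 without either replicate. For captured fragments, r without a replicate was 0.529 to 0.535 for BT483 and GM06990, 0.625 to 0.706 for BT483 and SUM44, and 0.511 to 0.675 for GM06990 and SUM44.

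Members higher in BT483 against GM06990 numbered 1 in 50 kb windows (of 7), 0 corrected for trans level, 5 with DESeq2, 34 with near cis totals and 7 with fragment length; lower, 0 in 50 kb windows, 4 with at least 100 contacts, 0 corrected for trans level, 4 with TMM factors and 0 with near cis totals. In SUM44 against GM06990, higher numbered 3 in 50 kb windows, 5 corrected for trans level, 7 with DESeq2, 52 with near cis totals and 11 with telomeric fragments alone; lower, 0 in 50 kb windows, 0 corrected for trans level and 0 with near cis totals. Leaving out a library gave 0 to 14 higher and 0 to 5 lower in BT483 against GM06990, 5 to 31 and 0 to 4 in SUM44 against GM06990, and 0 to 2 and 0 to 2 in BT483 against SUM44. By captured fragment the ranges were 2 to 6 higher and 0 to 4 lower, 5 to 30 and 0 to 7, and 0 to 0 in both directions. Of the named changed fragments, none reversed; 37 of 176 values under other settings no longer passed, of which 20 with a library left out.

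With a replicate block, 9 members were higher and 2 lower in BT483 against GM06990, 18 and 3 in SUM44 against GM06990, and 0 in BT483 against SUM44; replicate differences correlated between lines at only -0.06, 0.06 and -0.02, so the numbers do not pair the libraries.

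In trans, windows higher in BT483 against GM06990 and in BT483 against SUM44 numbered 0 and 0 with chromosome 8 totals, DESeq2 size factors or TMM factors, and 1 to 6 and 0 to 6 when a library was left out; all other ranges were 0 to 0. The trans level with the long arm only was 1.19, 1.24 and 1.10 in BT483, GM06990 and SUM44. In GM06990 it was 1.17, 1.31, 1.24, 1.33 and 1.31 without the captured region on chromosome 2, 3, 9, 16 or 18, and in SUM44 1.41 without that on chromosome 18. Without a replicate it was 1.32 to 1.63, 1.25 to 1.26 and 1.27 to 1.36. The cause of these shifts was not tested.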
